A study of Homo sapiens with 9 samples.

Results

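The semaphorins, plexins and neuropilins are a family of guidance ligands and their receptors, and every gene whose symbol is SEMA or PLXN followed by its class number and letter, or is NRP1 or NRP2, was taken from the arrays. The rule gave 31 genes of the 19775 with a value, namely 20 semaphorins, 9 plexins and 2 neuropilins, and used no measured value beyond the choice, for each gene, of its probe set with the highest average signal on the 9 arrays. The family itself was chosen with earlier results of these data known, so its choice was not blind to them. The cells were MDA-MB435S, a metastatic melanoma line, in which total RNA was read on Affymetrix U133 Plus 2.0 arrays. There were 3 arrays of cells with WWOX, 3 of cells with the WWOX-WFPA mutant (WFPA) and 3 of cells with an empty vector (EV). WWOX is a tumor suppressor and scaffold protein with WW domains, and the WFPA mutation lies in its first WW domain, which binds partner proteins. All groups were stable clones selected in G418 and grown in DMEM with serum, so the groups also differ by clone, and WWOX was overexpressed from a vector. Nothing in the sources used here tells if the 3 arrays within a group came from separate cultures, so p-values measure only how far arrays of 1 group spread, which may be technical.

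The deposited labels hold a conflict that bears on every comparison. Groups were taken from the sample names, but the field for the viral vector gives wild-type WWOX for the arrays named EV and no vector for those named for WWOX, and the EV names bear a wox+ mark, while the WFPA arrays have the same group in both. WWOX mRNA was read by 5 probe sets, of which 2 ran with the names. At its brightest probe set it averaged 10.66 ± 0.276 in WWOX cells, 10.24 ± 0.118 in WFPA cells and 8.94 ± 0.284 in EV cells (log2 intensity, SD, n = 3 arrays each), and at a dimmer one 8.18 ± 0.297 in WWOX cells, 7.64 ± 0.0684 in WFPA cells and 4.49 ± 0.314 in EV cells. The other 3 were not called between WWOX cells and either group, and the brightest of these ran otherwise, at 8.87 ± 0.203 in WWOX cells, 8.38 ± 0.197 in WFPA cells and 9.11 ± 0.311 in EV cells (WFPA to EV -0.73, limma adjusted p = 0.0433, under 2-fold). The dimmest was lowest in EV cells, at 5.13 ± 0.179 in WWOX, 5.50 ± 0.820 in WFPA and 3.91 ± 0.647 in EV cells. The probe sets at 8.18 and 8.87 in WWOX cells are of the kind that Affymetrix marks as open to cross-hybridization.

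Semaphorins are secreted or membrane-bound proteins that steer migrating cells and growing axons. Most signal through plexins, whose intracellular part acts on small GTPases of the Ras and Rap families and so on integrin adhesion and the cytoskeleton. The secreted class 3 semaphorins largely need a neuropilin as the ligand-binding subunit beside a plexin of the A group, and neuropilins also bind growth factors of the VEGF family. Melanocytes come from the neural crest, whose migration is guided by class 3 semaphorins, and in melanoma the family has been studied for its part in motility and in the growth of vessels.

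Of the 31 genes, 4 were called higher in WWOX cells than in the mean of WFPA and EV cells (NRP2, PLXNA1, SEMA3A and SEMA3E) and 2 lower (SEMA4D and SEMA5A). A call needed both a difference of at least 2-fold and, in limma, a p under 0.05 after Benjamini-Hochberg adjustment over all 54613 probe sets tested. Among all genes 1.94% were called higher and 2.06% lower in this comparison. Against EV cells alone 3 members were called higher (NRP2, PLXNA1 and SEMA3A) and 2 lower (SEMA4D and SEMA5A), where 2.11% and 1.79% of all genes were. Against WFPA cells alone 4 were called higher (NRP2, PLXNA1, SEMA3A and SEMA3E) and 3 lower (SEMA4D, SEMA3F and PLXNA2), where the shares of all genes were 2.01% and 2.72%. Between WFPA and EV cells, 3 were called higher in WFPA cells (SEMA3F, SEMA3A and SEMA4D) and 1 lower (SEMA3E), against 1.54% and 0.693% of all genes. In all, 8 members were called in at least 1 comparison and 23 in none. The share of all genes called in at least 1 was not counted. The shares above are each of 1 comparison, so this count cannot be set against them. These comparisons share arrays, so that their calls are not independent of each other.

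The stretch before the transcription start is shown for those called against the mean of WFPA and EV cells that have a single window in RefSeq, so that the members which rose (NRP2, PLXNA1) can be set beside those which fell (SEMA4D, SEMA5A). Each run is 300 bases on GRCh38.p14, from 250 bases before the start to 50 after, read 5′ to 3′ on the gene's strand. Capitals mark E-boxes (CANNTG, the general form of the letters read by basic helix-loop-helix factors) and GC boxes (GGGCGG, the letters read by Sp1), on either strand, and copies that overlap run together. The windows are chr2:205682251-205682550 (plus strand) for NRP2, chr3:126982865-126983164 (plus) for PLXNA1, chr9:89495607-89495906 (minus) for SEMA4D and chr5:9546026-9546325 (minus) for SEMA5A.
NRP2: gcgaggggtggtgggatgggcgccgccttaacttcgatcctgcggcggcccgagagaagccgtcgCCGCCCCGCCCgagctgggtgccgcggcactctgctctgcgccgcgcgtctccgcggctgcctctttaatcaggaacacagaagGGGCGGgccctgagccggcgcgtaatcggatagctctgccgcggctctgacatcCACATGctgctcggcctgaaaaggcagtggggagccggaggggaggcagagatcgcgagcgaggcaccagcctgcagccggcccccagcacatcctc
PLXNA1: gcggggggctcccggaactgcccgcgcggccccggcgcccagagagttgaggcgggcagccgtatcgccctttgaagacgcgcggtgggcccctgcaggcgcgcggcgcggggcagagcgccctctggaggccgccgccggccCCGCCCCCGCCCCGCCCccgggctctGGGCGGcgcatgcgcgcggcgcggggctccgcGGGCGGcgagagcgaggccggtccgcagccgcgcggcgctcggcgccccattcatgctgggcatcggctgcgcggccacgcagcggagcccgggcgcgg
SEMA4D: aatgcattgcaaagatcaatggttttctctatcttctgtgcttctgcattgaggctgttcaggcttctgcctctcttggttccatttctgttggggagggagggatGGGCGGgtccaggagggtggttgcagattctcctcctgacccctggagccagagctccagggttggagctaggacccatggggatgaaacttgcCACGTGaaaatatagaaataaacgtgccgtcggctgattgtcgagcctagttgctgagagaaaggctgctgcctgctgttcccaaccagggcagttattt
SEMA5A: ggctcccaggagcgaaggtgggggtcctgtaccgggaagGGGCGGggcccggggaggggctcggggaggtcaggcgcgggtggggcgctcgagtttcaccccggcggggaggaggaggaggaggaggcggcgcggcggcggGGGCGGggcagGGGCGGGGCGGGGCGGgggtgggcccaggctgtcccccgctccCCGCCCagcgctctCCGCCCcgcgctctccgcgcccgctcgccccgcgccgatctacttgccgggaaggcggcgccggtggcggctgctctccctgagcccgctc

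The NRP2 window held 1 E-box, CACATG, which reads CATGTG on the other strand, and 3 GC boxes, and the PLXNA1 window held 5 GC boxes and no E-box letters. The SEMA4D window had 1 E-box, CACGTG, and 1 GC box, and that of SEMA5A had 7 GC boxes and no E-box letters. RefSeq windows matched 27 of the 31 members, with 48 windows, and no entry was matched for SEMA3A, SEMA6A, SEMA6B and NRP1. CANNTG was found in 31 of the 48 member windows (64.6%) and in 68.7% of all 35116 windows of this length. GGGCGG was likewise found in 31 member windows (64.6%), against 45.0% of all windows. CATGTG was in 7 member windows and 11.1% of all, and CACGTG in 3 and in 7.26% of all. A match of these short motifs is a description of the letters and not of a bound site.

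**Figure D1:**
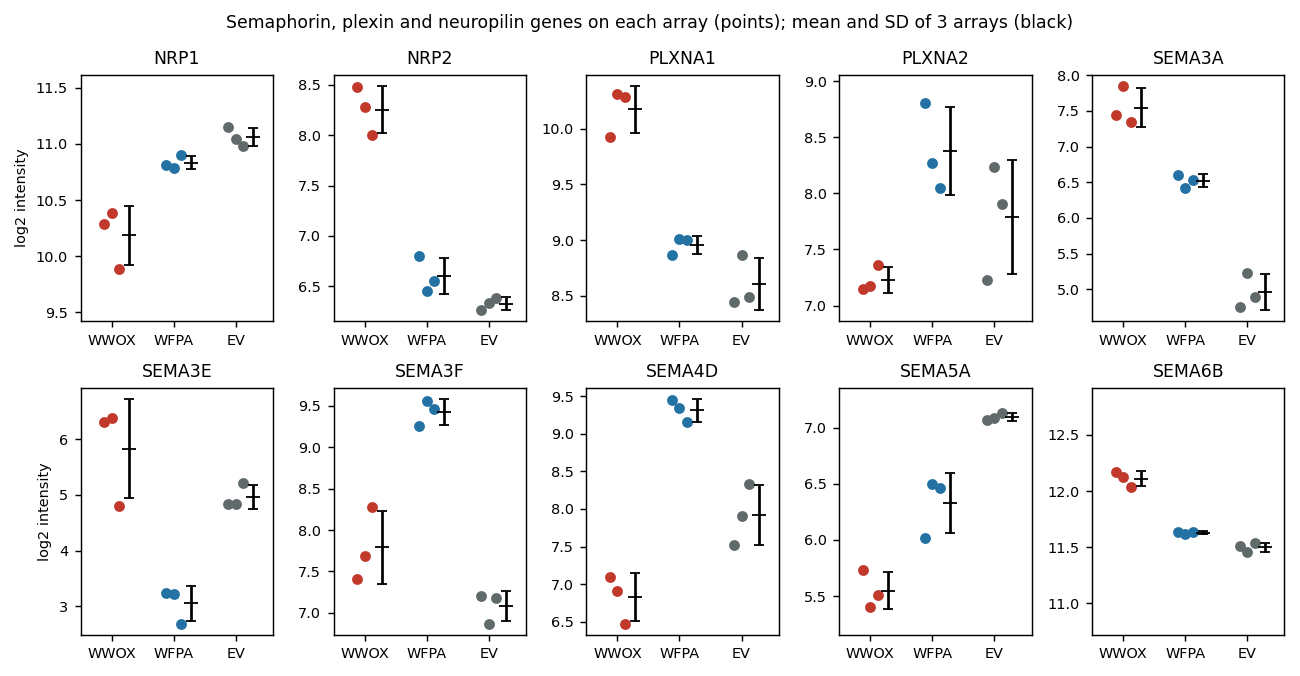
Log2 intensity (y axis, its own range in each panel) of the 8 members called in any comparison, NRP1 and SEMA6B, 1 point per array, in WWOX, WFPA and EV cells, and black marks for mean and SD (n = 3 arrays). NRP2, PLXNA1 and SEMA3A lie above both other groups on all WWOX arrays, SEMA4D and SEMA5A below, and SEMA3F is high on the WFPA arrays alone.

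NRP2 rose in WWOX cells, while NRP1 differed in the other direction by less than 2-fold. The arrays read bulk RNA, so that a smaller share of cells with a transcript and less of it per cell cannot be told apart. NRP2, the neuropilin that SEMA3F binds best and a co-receptor for VEGFC, read 8.47, 8.28 and 8.0 on the WWOX arrays, against 6.80, 6.45 and 6.55 on the WFPA arrays and 6.26, 6.34 and 6.38 on the EV arrays (log2 intensity). The WWOX arrays all lay above the 6 others, and the WFPA arrays lay above the EV arrays, a difference that was not called. The difference to the mean of WFPA and EV was 1.79 on the log2 scale, or 3.46-fold (standard error 0.118, limma adjusted p = 1.55e-05), with 1.65 against WFPA (adjusted p = 7.04e-05) and 1.93 against EV (adjusted p = 2.95e-05). Between WFPA and EV cells it was 0.27 (adjusted p = 0.328).

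NRP1, the neuropilin that SEMA3A and VEGFA bind, was read at 10.29, 10.38 and 9.89 in WWOX cells, at 10.82, 10.79 and 10.90 in WFPA cells and at 11.15, 11.05 and 10.98 in EV cells. All WWOX arrays were below all others, and the WFPA arrays were below the EV arrays. The difference of WWOX cells to the mean of WFPA and EV cells was -0.76 (standard error 0.113, limma adjusted p = 0.00202), which is 1.7-fold and under the 2-fold limit, so that NRP1 was not called. Against WFPA cells it was -0.65 (adjusted p = 0.0096) and against EV cells -0.88 (adjusted p = 0.00272).

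Of the 9 plexins, PLXNA1 was called in every comparison of WWOX cells. It encodes a signalling subunit that pairs with the neuropilins for class 3 semaphorins. Its levels were 9.93, 10.31 and 10.28 in WWOX cells, against 8.87, 9.01 and 9.0 in WFPA cells and 8.45, 8.87 and 8.49 in EV cells, with no overlap between WWOX and the other groups. The difference to the mean was 1.39 (2.62-fold, standard error 0.125, limma adjusted p = 0.000105), that to WFPA 1.21 and that to EV 1.57.

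PLXNA2, a receptor of class 6 as well as class 3 ligands, was called only against WFPA cells. It read 7.15, 7.17 and 7.36 on the WWOX arrays, 8.81, 8.27 and 8.05 on the WFPA arrays and 7.23, 8.23 and 7.90 on the EV arrays. The WWOX arrays were thus close to each other and the EV arrays wide apart, with EV replicate 1 among the WWOX values. The difference between WWOX and WFPA cells was -1.15 (2.22-fold lower in WWOX cells, standard error 0.261, limma adjusted p = 0.017), and the differences to EV (-0.56, adjusted p = 0.222) and between WFPA and EV (0.59, adjusted p = 0.262) were not called. Without WFPA replicate 1 the difference to WFPA was -0.93 (adjusted p = 0.0586), and without WWOX replicate 2 its adjusted p was 0.0501.

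The other 7 plexins were not called in any comparison. PLXNB1, the main receptor of SEMA4D, lay 0.55 higher in WWOX cells than in the mean of WFPA and EV cells (limma adjusted p = 0.00671), and PLXNB3, a receptor of SEMA5A, 0.65 higher (adjusted p = 0.000909), and in both genes all WWOX arrays were above the 6 others. Both differences are under 2-fold. At the other probe set of PLXNB1 the difference was 0.24 (limma adjusted p = 0.119), and the WWOX arrays overlapped with the others. PLXNB2, a further receptor of class 4 semaphorins, spread more among the WWOX arrays (7.02, 7.32 and 8.20) than among the WFPA arrays (8.0, 7.64 and 7.88) and the EV arrays (7.53, 7.64 and 7.64). Its difference to the mean of WFPA and EV cells was -0.21 there, but 0.41 at its dimmer probe set (limma adjusted p = 0.0813). At that dimmer probe set all WWOX arrays lay above the 6 others. PLXNA3, PLXNA4, PLXNC1 and PLXND1 differed by 0.07 to 0.11 from the mean of WFPA and EV cells (adjusted p = 0.634, 0.639, 0.793 and 0.715 from limma).

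Among the 7 class 3 semaphorins, SEMA3A was graded over the groups. SEMA3A is the collapsing factor of sensory growth cones that signals through NRP1 and A-type plexins. It read 7.44, 7.85 and 7.34 in WWOX cells, 6.60, 6.42 and 6.53 in WFPA cells and 4.75, 5.23 and 4.89 in EV cells, so that no array of a group overlapped with another group. WWOX cells were 1.81 above the mean of the others (3.50-fold, standard error 0.141, limma adjusted p = 4.41e-05) and 2.59 above EV cells (6.02-fold, adjusted p = 1.40e-05). WFPA cells were themselves 1.56 above EV cells (2.96-fold, standard error 0.163, limma adjusted p = 0.000713). The step between WWOX and WFPA cells was 1.03 (adjusted p = 0.00296), just past 2-fold, and it was under that limit without WWOX replicate 2 (0.87) or WFPA replicate 2 (0.98).

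SEMA3E, which binds PLXND1 without a neuropilin, had 6.30, 6.38 and 4.81 in WWOX cells, 3.25, 3.23 and 2.69 in WFPA cells and 4.85, 4.85 and 5.21 in EV cells. The WFPA arrays were the lowest and lay below the lower quartile of their arrays, which was 4.23 to 4.34 over the 9 arrays, so that the size of differences to WFPA cells is uncertain. WWOX replicate 3 was slightly below all EV arrays. The difference of WWOX cells to the mean of the other groups was 1.82 (standard error 0.327, limma adjusted p = 0.00562), but that to EV cells was 0.86 (adjusted p = 0.194), and without WWOX replicate 3 the gene was also called against EV cells. Between WFPA and EV cells the difference was -1.91 (3.76-fold lower in WFPA cells, adjusted p = 0.018), a call that was lost when any single WFPA or EV array was left out (adjusted p of 0.0511 to 0.0756). SEMA3E had a single probe set here, of the kind that Affymetrix marks as open to cross-hybridization.

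SEMA3F, the ligand of NRP2, stood apart in WFPA cells. Its levels were 7.41, 7.69 and 8.27 in WWOX cells, 9.26, 9.56 and 9.46 in WFPA cells and 7.20, 6.87 and 7.18 in EV cells. The WFPA arrays were far above all others, and the WWOX arrays above the EV arrays. WFPA cells exceeded EV cells by 2.34 (5.07-fold, standard error 0.206, limma adjusted p = 0.000284), and the difference between WWOX and WFPA cells was -1.63 (3.10-fold lower in WWOX cells, adjusted p = 0.000839). Between WWOX and EV cells the difference was 0.71 (adjusted p = 0.0578), and against the mean of WFPA and EV it was -0.46 (adjusted p = 0.114), which puts together groups that differ.

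Of the other class 3 genes, SEMA3C, which binds both neuropilins, differed by -0.31 between WWOX cells and the mean (limma adjusted p = 0.0311) with all WWOX arrays below the others (WWOX replicate 1 only just below EV replicate 2), at 8.84, 8.73 and 8.81 in WWOX cells, 9.18, 9.27 and 9.18 in WFPA cells and 9.11, 8.84 and 9.04 in EV cells. SEMA3B, SEMA3D and SEMA3G differed by 0.13, 0.31 and 0.29 (adjusted p = 0.449, 0.469 and 0.256). In SEMA3D, WWOX replicate 3 (5.53) was again away from the others of its group (6.41 and 6.67).

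**Figure D2:**
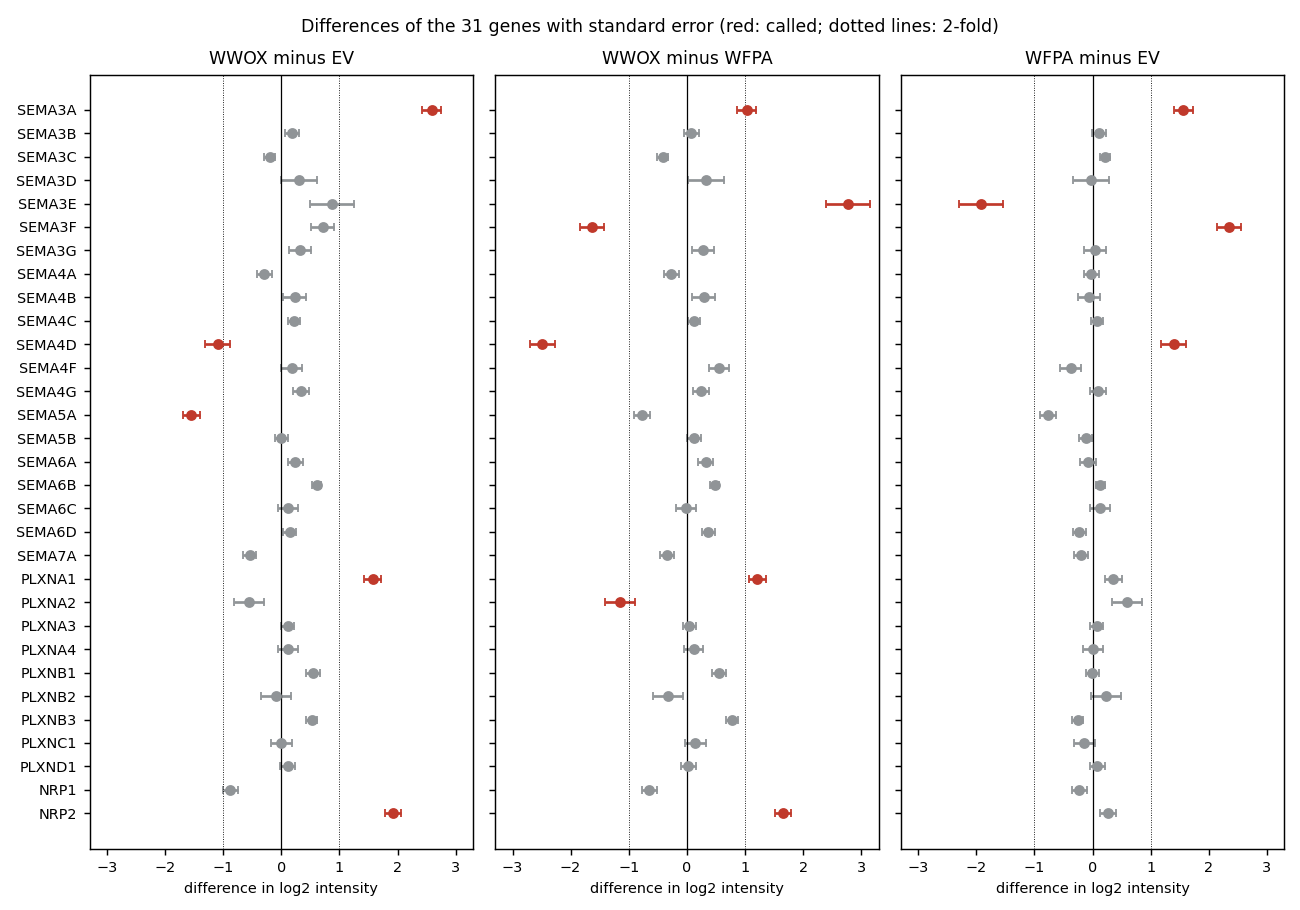
Difference in log2 intensity (x axis) with limma's standard error for all 31 members (rows) in the comparisons WWOX minus EV, WWOX minus WFPA and WFPA minus EV, called members in red and 2-fold marked by dotted lines. The 23 members called in no comparison lie within 2-fold in each panel.

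SEMA4D was the member with the largest call between WWOX and WFPA cells in the lower direction. It is a membrane-bound ligand that can be shed and acts on PLXNB1, and in immune cells on CD72. It read 7.09, 6.90 and 6.47 in WWOX cells, against 9.45, 9.34 and 9.15 in WFPA cells and 7.53, 7.90 and 8.33 in EV cells. The groups did not overlap, with EV cells between the others. The difference of WWOX cells to the mean of WFPA and EV cells was -1.79 (3.46-fold lower, standard error 0.188, limma adjusted p = 0.000281), that to WFPA cells -2.49 (5.61-fold, adjusted p = 9.96e-05) and that to EV cells -1.09 (2.13-fold, adjusted p = 0.0116). WFPA cells were 1.39 above EV cells (2.63-fold, standard error 0.217, adjusted p = 0.00589). The difference between WWOX and EV cells was under 2-fold without WWOX replicate 3 (-0.92) or EV replicate 3 (-0.89).

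The other 5 class 4 semaphorins were not called. SEMA4A, SEMA4B, SEMA4C, SEMA4F and SEMA4G differed from the mean of WFPA and EV cells by -0.28 to 0.36, with limma adjusted p-values of 0.132 to 0.333. SEMA4B had its highest value on WWOX replicate 3 (7.70, beside 6.84 and 6.97). SEMA4G, whose probe set had the lowest mean of all members (4.29), was below the lower quartile on 5 of 9 arrays, and SEMA3G and SEMA4A were below it on 2 each.

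SEMA5A, a transmembrane protein with thrombospondin repeats and a ligand of PLXNB3, was highest in EV cells. It had 5.73, 5.40 and 5.51 in WWOX cells, 6.02, 6.5 and 6.46 in WFPA cells and 7.07, 7.09 and 7.13 in EV cells, again with no overlap between groups. The difference of WWOX cells to the mean was -1.16 (2.24-fold lower, standard error 0.123, limma adjusted p = 0.000297) and that to EV cells -1.55 (2.92-fold, adjusted p = 0.000158). WFPA cells lay between them, with -0.77 to EV cells (adjusted p = 0.013), and WWOX cells were at -0.78 to WFPA cells (adjusted p = 0.00603), both under 2-fold. SEMA5B was at 0.06 (adjusted p = 0.716).

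Of the class 6 semaphorins, transmembrane ligands of A-type plexins, SEMA6B was read at 12.17, 12.13 and 12.03 in WWOX cells, 11.64, 11.62 and 11.64 in WFPA cells and 11.51, 11.46 and 11.54 in EV cells. All WWOX arrays were above the others, but the difference of 0.55 (standard error 0.068, limma adjusted p = 0.000775) was under 2-fold. SEMA6A, SEMA6C and SEMA6D were at 0.28, 0.05 and 0.25 (adjusted p = 0.135, 0.852 and 0.104). The next brightest probe set of SEMA6A had 0.44 (limma adjusted p = 0.00929), with all WWOX arrays above the others, and its dimmer ones -0.11 to 0.20. SEMA7A, which is held to the membrane by a lipid anchor and binds integrin beta 1 and PLXNC1, differed by -0.44 between WWOX cells and the mean (limma adjusted p = 0.0172). It read 7.50, 7.81 and 7.83 in WWOX cells, 7.93, 8.17 and 8.06 in WFPA cells and 8.33, 8.29 and 8.15 in EV cells, without overlap of WWOX with the others.

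Among the members, average signal over the 9 arrays was highest at the probe sets of SEMA6B (11.75), NRP1 (10.69) and PLXNA1 (9.25). Signals of different probe sets depend on their probes and give no order of transcript amounts. On all 9 arrays 19 of the 31 members were above the array median (6.03 to 6.05). The 23 members called in no comparison spanned -0.76 (NRP1) to 0.65 (PLXNB3) against the mean of WFPA and EV cells, -0.65 (NRP1) to 0.78 (PLXNB3) against WFPA cells, -0.88 (NRP1) to 0.61 (SEMA6B) against EV cells, and -0.38 (SEMA4F) to 0.24 (PLXNB2) between WFPA and EV cells. The median standard error of these members was 0.113 in the comparison with the mean and 0.13 in the others.

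Read without the fold limit, 7 members were higher and 6 lower in WWOX cells than in the mean of WFPA and EV cells at a limma adjusted p under 0.05, where 9.49% and 10.9% of all genes were. All WWOX arrays lay above the 6 other arrays in 6 members and below them in 5, where 10.8% and 10.5% of all genes did so. The median difference of the members was 0.13, against 0.04 over all genes, and the median size of the difference 0.31, against 0.18.

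Probe sets of the same gene did not always move together. The members were read by 85 single-gene probe sets, of which 12 were called higher and 2 lower in WWOX cells than in the mean (1.46% and 1.77% of all probe sets tested). NRP2 had 11 probe sets, the most of any member, and 7 of the 12 were its own. In its 6 brightest the difference was 1.79, 1.72, 1.66, 1.17, 1.08 and 2.04, a dimmer one had 1.52, and the 4 uncalled ones 0.13 to 0.85. At the 2 brightest after the chosen probe set, WFPA cells were also above EV cells, by 0.56 and 0.72 (limma adjusted p = 0.0419 and 0.0488), under 2-fold. In SEMA6B the dimmest of its probe sets was called, at 11.27, 11.27 and 11.47 in WWOX cells, 10.33, 10.35 and 10.26 in WFPA cells and 10.11, 10.03 and 10.19 in EV cells, which is a difference of 1.13 to the mean (adjusted p = 2.2e-05), 1.02 to WFPA and 1.23 to EV. The brighter ones of SEMA6B are of the kind open to cross-hybridization.

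SEMA3A had a dimmer probe set with a call against the mean (1.06) and its dimmest had 0.64 (limma adjusted p = 0.087). PLXNA1 had 0.72 (adjusted p = 0.00111) and 0.19 (adjusted p = 0.137) at its others. For the members that were lower the probe sets differed more. SEMA4D had -0.19 (adjusted p = 0.409) at its other probe set, and SEMA5A had -0.04 (adjusted p = 0.869) at the next brightest and -0.80 (adjusted p = 0.0511) at the dimmest. SEMA3F had, between WFPA and EV cells, 0.19 and 0.10 at its other probe sets, beside 2.34 at the brightest. NRP1 had -0.05 (adjusted p = 0.726), -0.43 and 0.27 at its dimmer ones, and PLXNA2 -0.28 and 0.14. The calls of PLXNA1, PLXNA2, SEMA3F and SEMA4D thus rest on 1 probe set each, as do that of SEMA5A against the mean and those of SEMA3A between WWOX and WFPA cells (0.78 and 0.55 at its others) and between WFPA and EV cells (0.57 and 0.17). With the mean of all probe sets of a gene in place of the brightest, NRP2, SEMA3A and SEMA3E alone were called against the mean of WFPA and EV cells.

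**Figure D3:**
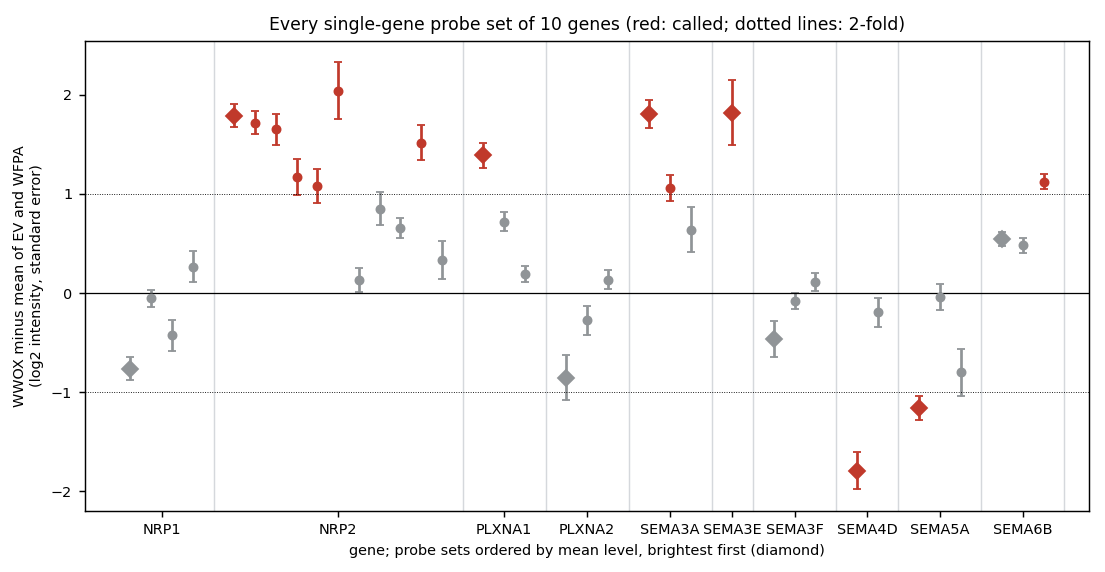
Difference of WWOX cells to the mean of WFPA and EV cells (y axis, log2 intensity, with limma's standard error) at each single-gene probe set of 10 members (x axis), brightest probe set first and drawn as a diamond, called ones in red. The probe sets of NRP2 lie between 0.13 and 2.04, and in SEMA4D and SEMA5A the brightest alone is called.

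Genes outside the family held to work with it were read from lists of receptor partners, growth factors that bind neuropilins, signal transducers and proteases. How firmly each tie to the family is known was not weighed. Of 80 such genes 75 were measured, and 2 were called higher and 2 lower in WWOX cells than in the mean of WFPA and EV cells, where 1.94% and 2.06% of all genes were. The called genes were SSH1, a phosphatase that activates cofilin (1.06, limma adjusted p = 0.000238), MICALL2, an actin-associated relative of the MICAL enzymes that act below plexins (1.02, adjusted p = 0.0398), FYN, a kinase of the Src family that acts below A-type plexins (-1.29, adjusted p = 0.00023), and HAVCR2, an immune receptor (-1.06, adjusted p = 0.0171). FYN read 8.37, 7.75 and 8.10 in WWOX cells, 9.48, 9.51 and 9.68 in WFPA cells and 9.28, 9.10 and 9.11 in EV cells, with no overlap. MICALL2 was highest on WWOX replicate 3 (9.28, beside 7.88 and 8.20) and HAVCR2 lowest on it (4.56, beside 5.86 and 5.50). With each of the 9 arrays left out in turn FYN was always called. HAVCR2 was lost without WWOX replicate 3, SSH1 without WWOX replicate 2, and MICALL2 in 7 of 9 cases, being called only without EV replicate 2 or WWOX replicate 1. Against WFPA cells alone 2 were called higher and 2 lower (2.01% and 2.72% of all genes), and against EV cells alone only FYN.

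By list, 1 of 17 receptor partners, 3 of 40 signal transducers and none of 9 growth factors or 9 proteases were called against the mean in limma, which is to be read against the shares of all genes above. At an unadjusted p under 0.05, 4 of the growth factors and 5 of the proteases differed, where 35.3% of all genes did. VEGFC and FGF2, both ligands of neuropilins, differed by -0.81 and -0.62 between WWOX cells and the mean (limma adjusted p = 0.000105 and 0.000788). VEGFA was called between WFPA and EV cells alone, at 12.28 ± 0.104 in WFPA cells and 11.05 ± 0.0805 in EV cells (SD, n = 3 arrays each), a difference of 1.22 (adjusted p = 0.000262). Of the proteases, FURIN and ADAM10, which cleave semaphorin or neuropilin chains, were 0.39 and 0.44 higher in WWOX cells than in the mean (adjusted p = 0.0417 and 0.0025). MMP14 and ADAMTS1 of the same list were 0.50 and 0.51 higher (limma adjusted p = 0.00612 and 0.00893). Against EV cells alone FURIN differed by 0.23 (adjusted p = 0.301). PCSK5 spread over 4.48, 6.04 and 7.33 among the WWOX arrays (1.37 to the mean, adjusted p = 0.0899). The median difference of the 75 genes was 0.08, against 0.04 over all genes.

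**Figure D4:**
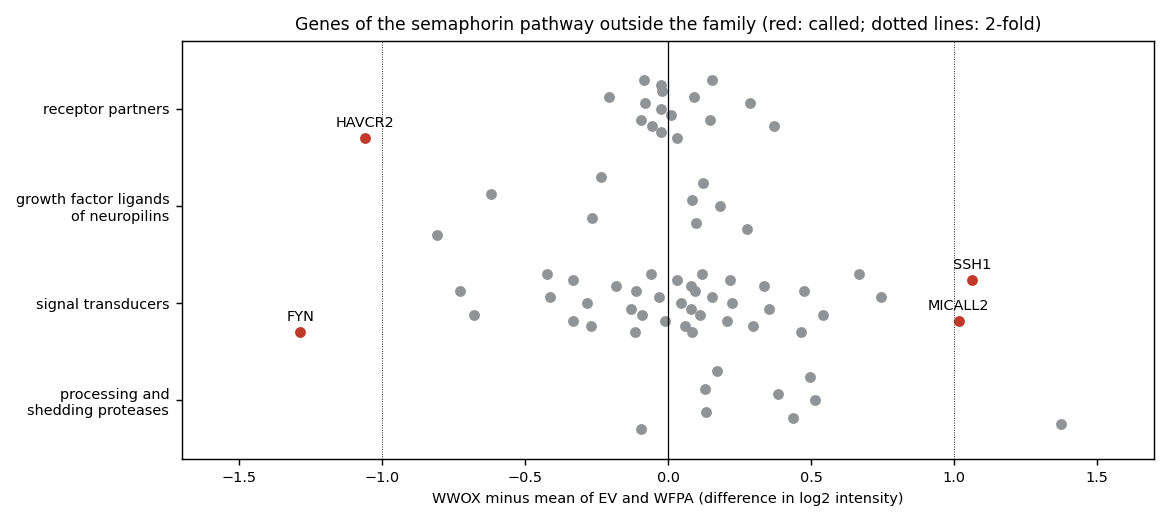
Difference of WWOX cells to the mean of WFPA and EV cells (x axis, log2 intensity) for the 75 partner genes by list (rows, points spread for legibility), called genes in red and named. SSH1 (1.06) and MICALL2 (1.02) lie above 2-fold, FYN (-1.29) and HAVCR2 (-1.06) below, and PCSK5 (1.37) is not called.

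The labelled cell type was checked on 7 melanocyte and melanoma markers. MITF, SOX10 and S100B averaged 13.43, 10.55 and 12.23 in WWOX cells, 11.40, 5.33 and 6.31 in WFPA cells and 11.87, 4.89 and 5.55 in EV cells, and all were called higher in WWOX cells. In WFPA and EV cells SOX10 was below the array median (6.03 to 6.05) and S100B near or below it. MITF alone of the 7 was well above the median in those cells. PMEL, MLANA, TYR and TYRP1, the pigment genes, were near or below the array median in all groups, with MLANA, close to the lower quartile, at 4.43 in WWOX, 4.42 in WFPA and 4.38 in EV cells, and TYRP1, well under it, at 2.21 in WWOX, 2.31 in WFPA and 2.26 in EV cells. The mean over the marker list was 7.67 to 7.86 on the WWOX arrays, 5.83 to 5.92 on the WFPA arrays and 5.71 to 5.79 on the EV arrays. Of the markers of other cell types, PTPRC was lower in WWOX cells (-3.29), as were KRT8 and KRT18 of 7 epithelial genes, while CDH1 was high in WFPA cells alone (4.54 in WWOX, 7.78 in WFPA and 4.67 in EV cells). In turn LUM (4.36) and COL1A2 (1.35) of 7 fibroblast genes and ERG (1.04) of 7 endothelial genes were higher in WWOX cells than in the mean of WFPA and EV cells. COL1A2 was not called between WWOX and WFPA cells (0.59) but was called between WFPA and EV cells (1.52). ERG was not called between WWOX and EV cells (0.98). The other fibroblast genes lay at -0.17 to 0.11 to the mean. PTPRC was also called lower in WFPA than in EV cells (-2.21). The mean over the 5 leukocyte genes was 4.77 to 5.05 on WWOX, 5.27 to 5.39 on WFPA and 5.72 to 5.77 on EV arrays, with PTPRC alone called and the others at -0.01 to 0.10, and that over the epithelial genes 6.48 to 6.53 on WWOX, 7.25 to 7.32 on WFPA and 6.79 to 7.02 on EV arrays. The fibroblast genes averaged 6.02 to 6.12 on WWOX, 5.35 to 5.40 on WFPA and 5.07 to 5.26 on EV arrays, and the endothelial genes 5.46 to 5.68 on WWOX, 5.15 to 5.23 on WFPA and 5.17 to 5.29 on EV arrays. Of 7 neuron genes none was called (limma, 2 at an unadjusted p under 0.05), with averages of 6.88 to 6.98 on WWOX, 6.88 to 6.96 on WFPA and 6.84 to 6.86 on EV arrays. The part of these markers in the differences of the members was not tested. Arrays of a group correlated at 0.9875 to 0.9959 over all probe sets (Pearson, across probe sets, which are not independent), with the lowest values for WWOX replicate 3.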

How the data were processed

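The study hybridized RNA of 9 samples to Affymetrix arrays, whose scans the authors calibrated and normalized with Partek Genomics Suite. The deposited values are log2 intensities, with the background correction and normalization not given in the sources used here, and no further normalization was applied. Of 54675 probe sets, 62 array controls were left out. A probe set counts for a gene where the platform annotation, with symbols updated through gene IDs, gives 1 gene (41091 probe sets). Group means were fitted over all 9 arrays with limma 3.58.1 in R 4.3.3, with 6 residual and 3.04 prior degrees of freedom. Standard errors are limma's. Every member is described, with all arrays for called ones and the neuropilins, and up to 3 called genes per partner list and direction. SEMA6B, the uncalled members with array values, and VEGFA, VEGFC, FGF2, FURIN, ADAM10, MMP14, ADAMTS1 and PCSK5 were named after their values were seen. The members, lists and markers were chosen with earlier results of these data known. The fit was also run on simulated data with independent noise at each probe set, unlike real arrays. That run checks the code and not the calls. The alternatives were other fold limits, adjustments, variance models, normalizations, filters and probe set choices, the replicate number as a block, and each array left out. The number of arrays limits the precision. Motifs were counted in RefSeq windows with Python 3.11.15 and pandas 2.3.3, and figures drawn with matplotlib 3.10.9. The authors' methods used a 4-fold limit.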

Additional observations from a re-analysis of the deposited data

How the results depend on the processing

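Against the mean of WFPA and EV cells 6 members were called in limma, and 0 at a 4-fold limit (19 at an unadjusted p under 0.05 with no fold limit), 13 with no fold limit, 2 with Bonferroni adjustment and 3 with the mean of all probe sets of a gene. Against EV cells 5 were called, and 1, 10, 2 and 2 under the same settings in the same order, and against WFPA cells 7 were called, and 2, 13, 1 and 2. Between WFPA and EV cells 4 were called, and 1 at 4-fold, 0 with Bonferroni adjustment (8 at an unadjusted p under 0.05) and 1 with the mean of all probe sets. Of the partner genes 4 were called against the mean, and 0 at 4-fold and with Bonferroni adjustment (31 at an unadjusted p under 0.05), 22 with no fold limit, 2 with a plain linear model (FYN and SSH1) and 1 with the mean of all probe sets (RRAS2, not among the 4). At an unadjusted limma p under 0.05, 35.3% of all genes differed from the mean and 22.8% between WFPA and EV cells. With no fold limit, 4023, 2931 and 4037 of all 19775 genes were called against the mean, EV cells and WFPA cells. Shares of all genes were not counted at the other settings. With each array left out in turn the members called were 6 to 6 against the mean, 4 to 5 against EV cells, 5 to 7 against WFPA cells and 3 to 4 between WFPA and EV cells, and the partner genes called were 2 to 5. Without WWOX replicate 2 the partner genes called were HAVCR2 and FYN, and without WWOX replicate 3 they were FYN and SSH1. Limma-trend, quantile normalization and median centring gave the same counts. Each called difference of a member, and those of NRP1 and SEMA6B between WWOX cells and the other groups, kept its sign under these settings, while uncalled differences of the called members were not followed. Fold limits, adjustments, variance models, the filter and the replicate block do not alter the differences, so that there the sign could not change. Only the normalizations, the probe set choices and the arrays left out could have changed it. The probe set of largest variance added SEMA6B to the members called in each comparison of WWOX cells. Samples of 1 number in different groups did not deviate together (correlations of -0.052 to 0.035), so no shared effect of the numbers was seen. The labels do not tell if samples of 1 number were handled together, and these correlations cannot settle it. With the replicate number as a block 6, 5, 7 and 4 members were called in the 4 comparisons and 3 partner genes against the mean, without MICALL2. Low signals, such as those of SEMA3E in WFPA cells, limit the size that can be given to a change.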
